A study of Homo sapiens with 10 samples.

Results

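The 10 amino acid transporter genes, SLC7A11, SLC7A5, SLC7A1, SLC7A6, SLC3A2, SLC1A4, SLC1A5, SLC38A1, SLC38A2 and SLC6A9, were followed across small interfering RNA (siRNA) knockdowns in HEK-293, an established line of human embryonic kidney origin. They were taken by gene symbol from a list, which was chosen by measured values: SLC7A11 had moved in opposite directions with the 2 siRNAs that target LOC440173, a long non-coding RNA. They make up 10 of the 18404 genes. Of the 32321 probe sets on the array, 19158 were annotated to 1 symbol, and 11 of these belonged to the list. SLC1A5 had 2 such probe sets and each other gene had 1. The 1388 probe sets annotated to several symbols were not searched for the listed genes. Total RNA was taken 48 h after transfection and measured on Affymetrix arrays. The 10 arrays formed 5 groups of 2: LOC440173 siRNA 1 at 10 nM, LOC440173 siRNA 2 at 10 nM, a non-targeting control siRNA at 10 nM, an siRNA against PAXIP1-AS1 (another long non-coding RNA) at 100 nM, and the same control siRNA at 100 nM. All groups shared the cell line, the medium and the transfection reagent. The sequence of the control siRNA is undisclosed, and PAXIP1-AS1 was targeted with a single siRNA. The labels call the arrays of a group biological replicates. In RNA from whole cultures, fewer cells of a kind and less RNA per cell cannot be told apart.

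These proteins carry amino acids across the plasma membrane. SLC7A11, or xCT, imports cystine in exchange for glutamate, and the cysteine made from cystine feeds glutathione synthesis, which protects cells from lipid peroxidation and ferroptosis. SLC7A11, SLC7A5 and SLC7A6 are light chains that reach the cell surface bound to the heavy chain SLC3A2, while SLC7A1 works without it. Many genes of this kind are raised by ATF4, the transcription factor made when amino acids run short or the endoplasmic reticulum is stressed, and SLC7A11 is also a target of NRF2, the regulator of the antioxidant response.

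LOC440173, named LINC02893 in RefSeq, had 7.72 and 7.43 with siRNA 1 and 6.71 and 6.59 with siRNA 2, against 8.48 and 8.60 in the control at 10 nM (log2). Both siRNAs thus left less of their target, with log2 fold changes of -0.96 and -1.89, and the remaining level was lower with siRNA 2. LINC02893 stood at 8.54 and 8.54 with the PAXIP1-AS1 siRNA, against 8.50 and 8.60 in the control at 100 nM. The level of PAXIP1-AS1 was not analysed here, because none of the probe sets used was annotated to it, so the knockdown behind its comparison was not checked. Array medians lay between 7.057 and 7.119, and replicate arrays correlated at r = 0.9966 to 0.9985 across genes, which are not independent replicates. Over 8 genes typical of HEK-293 cells, the mean level was 9.22 to 9.27 with siRNA 1, 9.49 to 9.53 with siRNA 2, 9.46 to 9.47 in the control at 10 nM, 9.27 to 9.31 with the PAXIP1-AS1 siRNA and 9.45 to 9.50 in the control at 100 nM. It was thus lower with siRNA 1 and with the PAXIP1-AS1 siRNA than in their controls, and its part in the results was not tested. Of these 8 genes, 1 passed the limma threshold as higher and 3 as lower with siRNA 1, beside 12.1% and 16.7% of all genes. With siRNA 2, 3 passed as higher and 4 as lower, beside 12.5% and 17.4%. With the PAXIP1-AS1 siRNA, 0 passed as higher and 2 as lower, beside 2.86% and 1.76%. These shares of all genes include dim genes. The log2 fold changes of the 8 ran from -1.07 to 0.53, -0.59 to 1.11 and -1.13 to 0.26 in these comparisons. Among the 8, VIM lay between 11.06 and 11.43 on the arrays, and PAX2 between 6.69 and 6.97. NEFM varied more, between 9.40 and 11.37, as did NEFL, between 9.07 and 10.30. A further 27 markers of kidney tubule, blood, fibroblast or endothelium, liver and keratinocytes were measured. The mean level of the 27 was 5.76 to 5.79 with siRNA 1, 5.64 to 5.79 with siRNA 2, 5.60 to 5.74 in the control at 10 nM, 5.67 to 5.73 with the PAXIP1-AS1 siRNA and 5.66 to 5.75 in the control at 100 nM. Levels among the 27 differed widely. The leukocyte marker PTPRC lay between 3.52 and 3.69 on the arrays and the macrophage gene CD68 between 7.20 and 7.71. The fibroblast gene COL1A1 lay between 7.81 and 8.37, and the kidney tubule gene LRP2 between 7.84 and 9.26. Array levels do not show whether a gene is expressed at all.

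Promoter sequence was available for 9 of the 10 genes in the RefSeq table (build GRCh38.p14), as 15 windows of 250 bases before and 50 after a transcript start. SLC7A11 was the gene not matched. Searched on both strands, TGATGNAAN, the core letters of the amino acid response element that ATF4 binds, was found in 5 of the 15 windows (33.3%), from 5 genes, and in 3.61% of 35116 windows of all genes. TGACNNNGC, the core of the antioxidant response element that NRF2 binds, was also found in 5 of the 15 windows, and in 13.3% of all windows. These matches describe the letters only, and the windows of a gene lie at alternative starts. SLC1A5 and SLC3A2 had 3 windows each, and SLC1A4 and SLC38A1 had 2 each. In these genes the amino acid element was matched in a single window, the most downstream one, and the most upstream window held neither element. Positions count the start base as 1 and the base before it as -1. The 4 stretches below show how the elements sit in the neutral amino acid exchangers, SLC38A1 and the heavy chain, with the match in capitals. In SLC1A4 the match reads on the strand opposite to the gene, from -8 to 1 relative to the start, at chr2:64989349-64989408 (plus strand). In SLC1A5 it lies from -97 to -89 at chr19:46784878-46784937 (minus strand), and in SLC38A1 from -4 to 5 at chr12:46266507-46266566 (minus strand). The stretch of SLC3A2, at chr11:62881636-62881695 (plus strand), holds the antioxidant element from -37 to -29. Each sequence reads 5′ to 3′ along its gene.
SLC1A4: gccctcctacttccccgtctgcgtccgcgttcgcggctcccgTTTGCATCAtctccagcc
SLC1A5: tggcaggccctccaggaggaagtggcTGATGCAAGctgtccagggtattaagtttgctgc
SLC38A1: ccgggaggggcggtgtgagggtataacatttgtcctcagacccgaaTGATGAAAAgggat
SLC3A2: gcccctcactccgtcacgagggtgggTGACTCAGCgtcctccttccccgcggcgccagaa
The amino acid element was also matched after the start in SLC7A1 (8 to 16) and SLC3A2 (37 to 45). The antioxidant element was also matched in SLC7A5, SLC7A1, SLC7A6 and another SLC1A5 window, and neither element was matched in the windows of SLC38A2 and SLC6A9.

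All 3 light chains and their heavy chain lay below the control with siRNA 1, by differing amounts, and SLC7A11 parted from the other 3 with siRNA 2. SLC7A11 stood at 7.62 and 7.60 with siRNA 1 and 10.36 and 10.43 with siRNA 2, against 9.89 and 10.09 in the control at 10 nM (log2). Both siRNA 1 arrays lay far below the control arrays and both siRNA 2 arrays lay above them. The mean was 7.61 ± 0.0151 with siRNA 1 and 10.40 ± 0.0525 with siRNA 2 (SD, n = 2 each). The log2 fold change was -2.38 (SE 0.0780) with siRNA 1, which is 19.2% of the control, and 0.41 with siRNA 2, which is 133% of the control. Ordered by fold change, SLC7A11 ranked 3 from the lowest of the 18404 genes with siRNA 1. Because the list was drawn up from these contrasts, these values and those of the other transporters with the LOC440173 siRNAs are given as a description without a p-value. Calls of the transporters past a threshold in these contrasts, and how they held in other settings, are likewise a description and not a test.

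SLC7A5, or LAT1, imports leucine and other large neutral amino acids in exchange for glutamine. It stood at 9.99 and 9.98 with siRNA 1 and 10.41 and 10.38 with siRNA 2, against 10.96 and 10.97 in the control at 10 nM. Every array of either siRNA lay below both control arrays, at 50.7% of the control mean with siRNA 1 (log2 fold change -0.98, SE 0.0452) and 67.5% with siRNA 2 (-0.57). SLC7A6 exchanges cationic for neutral amino acids and had 10.53 and 10.61 with siRNA 1 and 10.31 and 10.38 with siRNA 2, against 10.70 and 10.66 in the control at 10 nM. All siRNA arrays were lower than the control arrays, with log2 fold changes of -0.11 and -0.33, so that here siRNA 2 gave the lower level. The heavy chain SLC3A2 had 11.06 and 11.04 with siRNA 1 and 10.99 and 10.99 with siRNA 2, against 11.23 and 11.22 in the control at 10 nM. It stayed within 0.23 (log2) over the 5 group means, the narrowest span of the 10 genes, and was at 89.0% of the control with siRNA 1 and 85.4% with siRNA 2.

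SLC7A1, or CAT1, imports arginine, lysine and ornithine. It had 9.96 and 9.89 with siRNA 1 and 10.63 and 10.62 with siRNA 2, against 10.75 and 10.70 in the control at 10 nM. The siRNA 1 arrays were well below the rest, at 57.6% of the control (log2 fold change -0.80, SE 0.0493), and the siRNA 2 arrays lay just under the control arrays (-0.10).

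**Figure D1:**
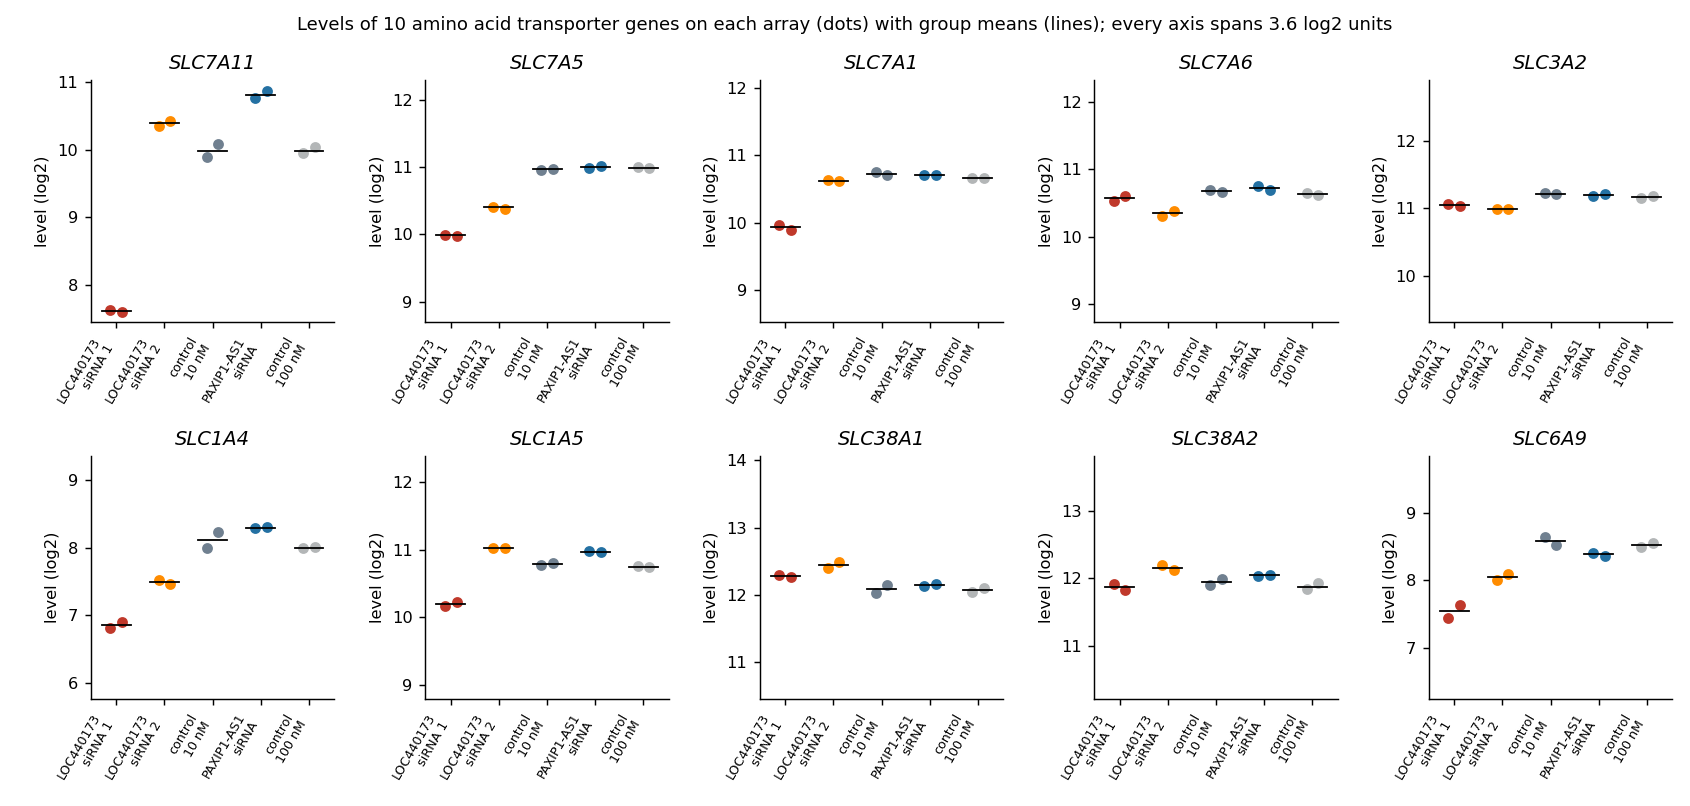
Level (log2) of each transporter gene on every array, 1 panel per gene, with dots for arrays and lines for the means of 2 arrays. Every axis spans the same number of log2 units; SLC7A11 shows siRNA 1 at 7.61 and the PAXIP1-AS1 siRNA at 10.82, while SLC3A2 stays within 0.23.

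The sodium-dependent exchangers SLC1A4 (ASCT1; alanine, serine and cysteine) and SLC1A5 (ASCT2; glutamine among others) parted company with siRNA 2. SLC1A4 had 6.81 and 6.90 with siRNA 1 and 7.52 and 7.46 with siRNA 2, against 8.00 and 8.23 in the control at 10 nM. Neither siRNA overlapped with the control, at 41.6% of it with siRNA 1 (log2 fold change -1.27, SE 0.0781) and 64.7% with siRNA 2 (-0.63). SLC1A5 had 10.16 and 10.22 with siRNA 1 and 11.02 and 11.02 with siRNA 2, against 10.77 and 10.81 in the control at 10 nM. Like SLC7A11, it was below both control arrays with siRNA 1, at 65.7% of the control, and above both with siRNA 2, at 117% of the control. These are values of its brighter probe set. The other probe set of SLC1A5 had 7.10 and 7.18 with siRNA 1 and 7.40 and 6.96 with siRNA 2, against 7.27 and 6.91 in the control at 10 nM. Its arrays overlapped in both comparisons, and its log2 fold changes were 0.05 and 0.09, so that the probe sets of this gene did not move alike.

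SLC38A1 and SLC38A2, or SNAT1 and SNAT2, carry glutamine and other small neutral amino acids into the cell with sodium. SLC38A1 had 12.29 and 12.26 with siRNA 1 and 12.40 and 12.49 with siRNA 2, against 12.03 and 12.15 in the control at 10 nM. It was the single transporter of the list whose arrays lay above the control arrays with both siRNAs, by log2 fold changes of 0.19 and 0.36. SLC38A2 had 11.92 and 11.83 with siRNA 1 and 12.20 and 12.13 with siRNA 2, against 11.90 and 11.99 in the control at 10 nM. The siRNA 1 arrays overlapped with the control (-0.07) and the siRNA 2 arrays lay above it (0.22).

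SLC6A9, or GlyT1, takes up glycine with sodium and chloride. It had 7.45 and 7.64 with siRNA 1 and 8.00 and 8.09 with siRNA 2, against 8.64 and 8.53 in the control at 10 nM. All siRNA arrays were lower than the control arrays, at 48.6% of the control with siRNA 1 (log2 fold change -1.04) and 68.6% with siRNA 2 (-0.54).

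By the limma fit across all genes with Benjamini-Hochberg adjustment, in which a gene passed at an adjusted p under 0.05, 0 of the 10 transporters were higher and 7 were lower with siRNA 1, beside 28.8% of all genes past the threshold (12.1% higher and 16.7% lower). SLC7A6, SLC38A1 and SLC38A2 were the 3 that did not pass, and SLC38A1 passed in 5 of 17 alternative settings, among them without control 10 nM replicate 2 (0.25). With siRNA 2, 4 were higher (SLC7A11, SLC1A5, SLC38A1 and SLC38A2) and 5 lower (SLC7A5, SLC7A6, SLC3A2, SLC1A4 and SLC6A9), beside 30.0% of all genes (12.5% higher and 17.4% lower). SLC7A1 did not pass. With dim genes left out, 8 transporters passed with siRNA 1 and 9 with siRNA 2, beside 55.0% and 57.3% of 9706 genes. The median log2 fold change of the 10 was -0.70 with siRNA 1, where that of all genes was 0.05, and -0.16 with siRNA 2, where that of all genes was 0.01. The list was drawn up with these contrasts known, so nothing further is read from these counts. The siRNA and control arrays did not overlap for 9 transporters with siRNA 1, and for 64.9% of all genes, or for 10 transporters with siRNA 2, and for 55.3% of all genes. The siRNA 1 call of SLC3A2 ended when any single one of the 4 arrays compared was dropped (log2 fold change -0.18 to -0.16). The siRNA 2 call of SLC38A2 was lost without control 10 nM replicate 1 (0.17), siRNA 2 replicate 1 (0.18) or siRNA 2 replicate 2 (0.25), and without either PAXIP1-AS1 array. With only the groups compared in the fit, SLC3A2 was no longer called with siRNA 1, nor were SLC7A11, SLC3A2, SLC1A5, SLC38A1 and SLC38A2 with siRNA 2, and with the mean of both probe sets SLC1A5 was no longer called with siRNA 2 (0.16).

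Set directly against siRNA 1, siRNA 2 left 7 transporters higher and 1 lower (SLC7A6, -0.22), beside 37.1% of all genes past the threshold (18.2% higher and 19.0% lower). The list was drawn up with the opposite directions of SLC7A11 under these siRNAs known, so the counts and values describe the members and nothing further is read from them. SLC7A11 differed by 2.79 (log2), SLC1A5 by 0.83, SLC7A1 by 0.70 and SLC1A4 by 0.64. SLC6A9 differed by 0.50, SLC7A5 by 0.41 and SLC38A2 by 0.29. SLC38A1 (0.16) and SLC3A2 (-0.06) did not pass the threshold, and SLC38A1 passed in 4 of 17 alternative settings. With dim genes left out, 9 transporters passed, beside 66.9% of 9706 genes. The arrays of siRNA 2 and siRNA 1 did not overlap for 10 of the 10 genes, and for 66.4% of all genes. The call of SLC7A6 was lost without siRNA 1 replicate 2 or siRNA 2 replicate 1 (-0.18 in either case), and that of SLC38A2 without siRNA 1 replicate 2 (0.25). Both LOC440173 comparisons share their control arrays, so their values stand side by side and were not correlated. The kidney tubule marker LRP2, the endocytic receptor megalin, differed by -0.52 with siRNA 1, 0.85 with siRNA 2 and 1.37 between siRNA 2 and siRNA 1. The other markers of other cell types past the threshold were the fibroblast gene COL1A1 (0.33) and the endothelial gene PECAM1 (0.36) with siRNA 1, and COL1A1 (-0.44), the macrophage gene CD68 (-0.40) and the liver gene ALB (-0.21) between siRNA 2 and siRNA 1. PECAM1 lay only between 4.63 and 5.15 on the arrays and ALB between 4.17 and 4.46, and their signal over background was not analysed. The part of LRP2 and the other markers in the results was not tested.

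**Figure D2:**
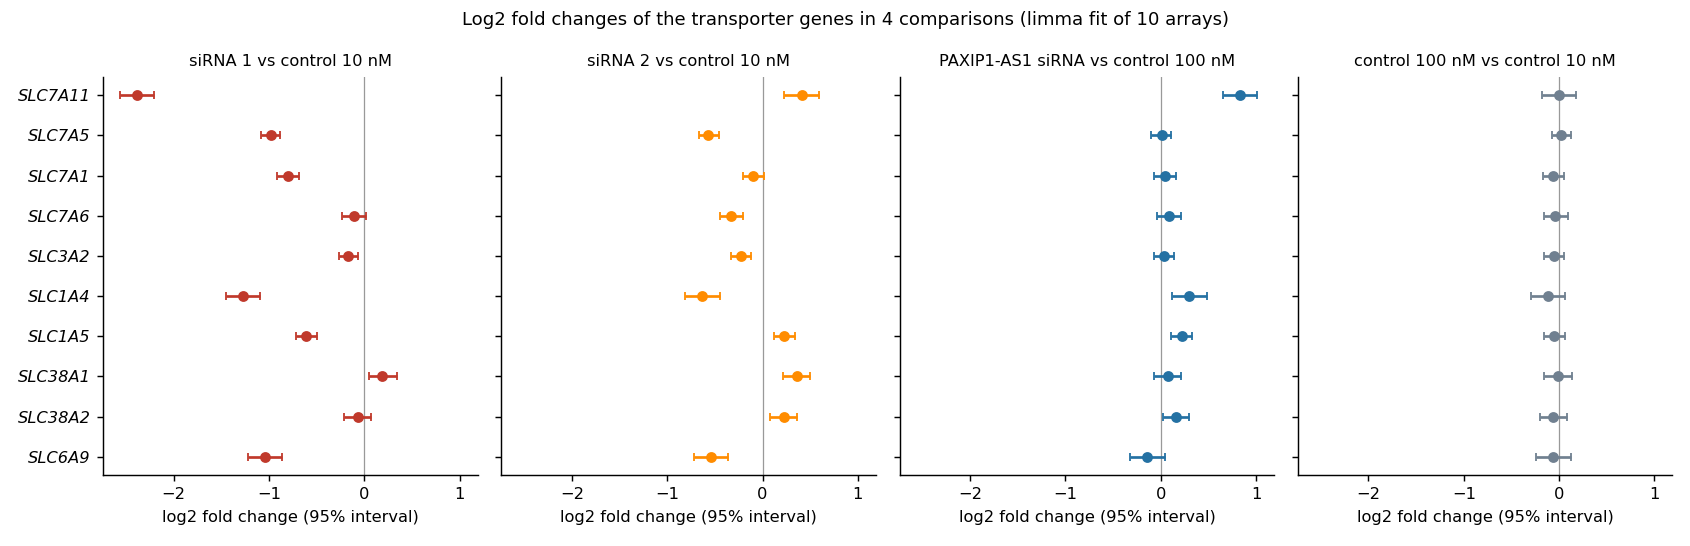
Log2 fold change of each transporter (x axis) with its 95% interval from the limma fit, 1 panel per comparison and 1 row per gene. The intervals in the LOC440173 panels are a description and not a test, since the list was drawn up from those contrasts. SLC7A11 lies at -2.38 with siRNA 1, 0.41 with siRNA 2, 0.83 with the PAXIP1-AS1 siRNA and 0.00 between the control doses.

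The stated reason for the list named the LOC440173 siRNAs and not the PAXIP1-AS1 comparison. The members were still chosen with earlier results of these data known, so the p-values below are not free of that choice. SLC7A11 had levels of 10.77 and 10.88 with the PAXIP1-AS1 siRNA, against 9.95 and 10.04 in the control at 100 nM. Both knockdown arrays lay above both control arrays. SLC7A11 was 1.78-fold higher (log2 fold change 0.83, 95% interval 0.65 to 1.01, limma adjusted p = 0.00199) and ranked 35 from the highest of the 18404 genes. The difference kept an adjusted p under the threshold in 17 of 17 alternative settings, with values from 6.31e-06 to 0.0299. SLC1A5 had 10.98 and 10.96 with the PAXIP1-AS1 siRNA, against 10.76 and 10.74 in the control at 100 nM. It rose as well, by 1.17-fold (0.22, 95% interval 0.11 to 0.33, limma adjusted p = 0.0422). Dropping any 1 of the 8 arrays outside the control at 10 nM ended this call (limma adjusted p = 0.0649 to 0.217). It was also lost with the mean of both probe sets (0.11, limma adjusted p = 0.605). The dimmer SLC1A5 probe set had 7.07 and 6.98 with the PAXIP1-AS1 siRNA, against 7.08 and 6.99 in the control at 100 nM.

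These 2 of 10 transporters passed the threshold with the PAXIP1-AS1 siRNA, both higher, beside 4.62% of all genes (2.86% higher and 1.76% lower). With dim genes left out, 3 transporters passed, all higher, beside 1058 higher and 831 lower of 9706 genes (19.5% in either direction). The median log2 fold change was 0.08 over the 10 transporters and -0.01 over all genes. SLC1A4 had 8.30 and 8.31 with the PAXIP1-AS1 siRNA, against 8.00 and 8.01 in the control at 100 nM. These arrays did not overlap, and the difference of 0.30 (95% interval 0.12 to 0.48) had a limma adjusted p of 0.0753. It passed in 5 of 17 alternative settings, among them without either array of the control at 10 nM (0.0286) and with dim genes left out (0.0193). SLC38A2 had 12.04 and 12.05 with the PAXIP1-AS1 siRNA, against 11.84 and 11.93 in the control at 100 nM. Its difference of 0.16 (95% interval 0.02 to 0.30) had a limma adjusted p of 0.205, and it passed with an intensity trend and a robust prior (0.0304).

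The remaining 6 transporters did not pass with the PAXIP1-AS1 siRNA. SLC7A5, which was lower with both LOC440173 siRNAs, had 10.99 and 11.01, against 11.00 and 10.98 in the control at 100 nM. These arrays overlapped, and the difference was 0.01 (95% interval -0.10 to 0.11, limma adjusted p = 0.949). SLC6A9 had 8.41 and 8.36 with the PAXIP1-AS1 siRNA, against 8.50 and 8.56 in the control at 100 nM, and its difference of -0.14 (95% interval -0.32 to 0.04) had a limma adjusted p of 0.388. SLC7A1, SLC7A6, SLC3A2 and SLC38A1 differed by 0.03 to 0.09. The 95% interval of SLC7A1 ran from -0.07 to 0.16 and that of SLC3A2 from -0.07 to 0.14, so that changes as large as those of SLC7A11 lay outside them. Arrays did not overlap for 9 of the 10 transporters, and for 51.3% of all genes. Markers of other cell types that were higher were LRP2 (0.60, limma adjusted p = 0.00168) and the liver enzyme gene CYP3A4 (0.46, limma adjusted p = 0.0319), of 27 measured. CYP3A4 lay only between 3.33 and 3.89 on the arrays, and its signal over background was not analysed. The part of LRP2 and CYP3A4 in the result was not tested.

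**Figure D3:**
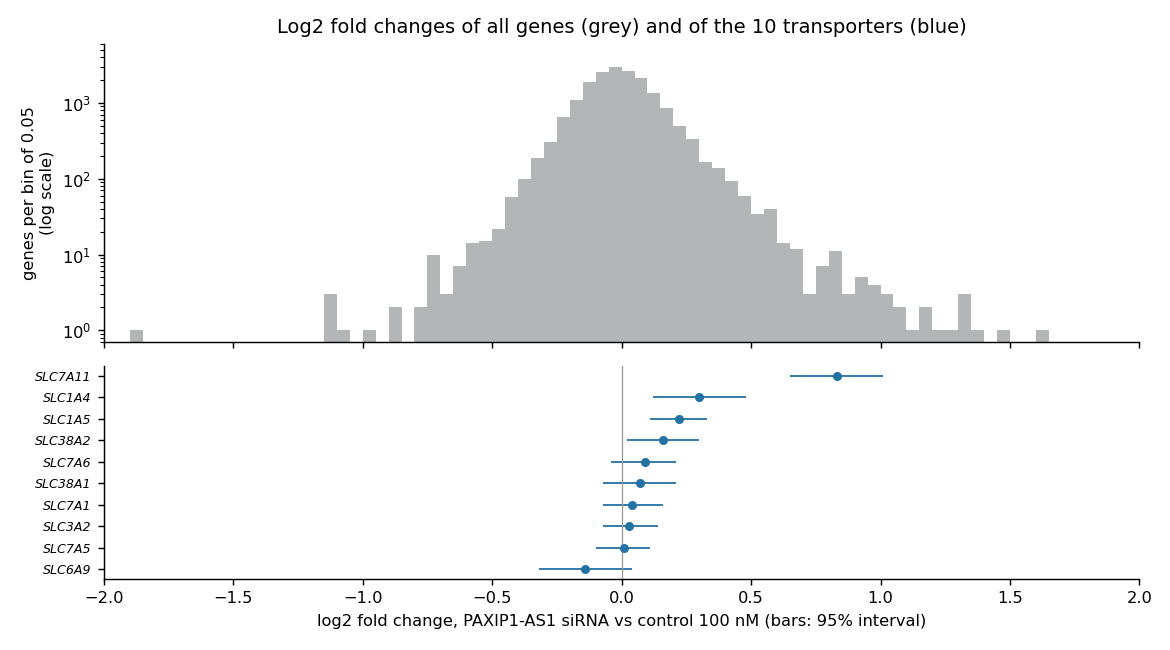
Top, number of genes (log axis) by log2 fold change between the PAXIP1-AS1 siRNA and its control, over 18404 genes. Bottom, the same fold change for each of the 10 transporters with its 95% interval, from SLC7A11 at 0.83 to SLC6A9 at -0.14.

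The control siRNA at 100 nM was set against the same siRNA at 10 nM to see what the dose alone did. SLC7A11 had 9.95 and 10.04 at 100 nM, against 9.89 and 10.09 at 10 nM, and these arrays overlapped. The difference was 0.00 (95% interval -0.18 to 0.18, limma adjusted p = 1.000). Over the 10 transporters the differences ran from -0.12 (SLC1A4) to 0.02 (SLC7A5). None of them passed the limma threshold, nor did any of the 18404 genes (0%). At an unadjusted p under 0.05 the counts were 0 transporters and 692 genes (3.76%). Arrays at both doses did not overlap for 5 transporters, and for 25.8% of all genes.

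Over all 5 groups, SLC7A11 had the widest span of group means, 3.21 (log2), followed by SLC1A4 with 1.45, SLC6A9 with 1.04 and SLC7A5 with 1.01. The pooled SD of replicate arrays was 0.0810 for SLC7A11 and at most 0.0812 for any of the 10. The group order for SLC7A11 was the PAXIP1-AS1 siRNA, siRNA 2, the control at 100 nM, the control at 10 nM and siRNA 1, from high to low. Of these neighbours, the control groups alone overlapped. SLC7A5, SLC1A4 and SLC6A9, among others, had siRNA 2 below both control groups. Patterns were compared by the root mean square difference between group means of a pair of genes, each centred on its own mean over the 5 groups. This measure is small where both genes vary little. SLC7A5 lay nearest to SLC6A9 (0.0900), SLC7A1 to SLC1A5 (0.122), SLC38A1 to SLC38A2 (0.109) and SLC7A6 to SLC3A2 (0.0614). The transporter nearest to SLC7A11 by this measure was SLC1A4 with 0.728, which ranked 106 among all genes. With siRNA 2, however, SLC1A4 was lower than the control (-0.63) and SLC7A11 higher (0.41). The brighter probe set of SLC1A5 shared the directions of SLC7A11 with siRNA 1, siRNA 2 and the PAXIP1-AS1 siRNA, and had 0.831 (rank 345).

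The 5 genes nearest SLC7A11 among all genes were PFN2 (0.298), BTBD1 (0.415), SLC39A1 (0.442), RAC1 (0.450) and NETO2 (0.462). PFN2, the actin-binding protein profilin 2, had 8.10 and 8.27 with siRNA 1, 11.19 and 11.30 with siRNA 2 and 11.07 and 11.11 in the control at 10 nM. It had 11.19 and 11.26 with the PAXIP1-AS1 siRNA, against 11.14 and 11.19 in the control at 100 nM, so its likeness to SLC7A11 came from the low siRNA 1 arrays. BTBD1 had 8.82 and 8.79 with siRNA 1 and 11.01 and 11.05 with siRNA 2, against 10.41 and 10.52 in the control at 10 nM. With the PAXIP1-AS1 siRNA it had 10.75 and 10.68, against 10.45 and 10.49 in the control at 100 nM. BTBD1 thus moved in the same directions as SLC7A11 with each of these siRNAs. SLC39A1, a zinc importer, had 7.59 and 7.54 with siRNA 1, against 9.48 and 9.50 in the control at 10 nM. RAC1, a small GTPase of the actin cytoskeleton, was the 1 of these 5 genes that stood as high with the PAXIP1-AS1 siRNA, with 8.60 and 8.70, against 7.44 and 8.03 in the control at 100 nM. Its replicate arrays differed by up to 0.69, as in 7.27 and 7.96 with siRNA 2.

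**Figure D4:**
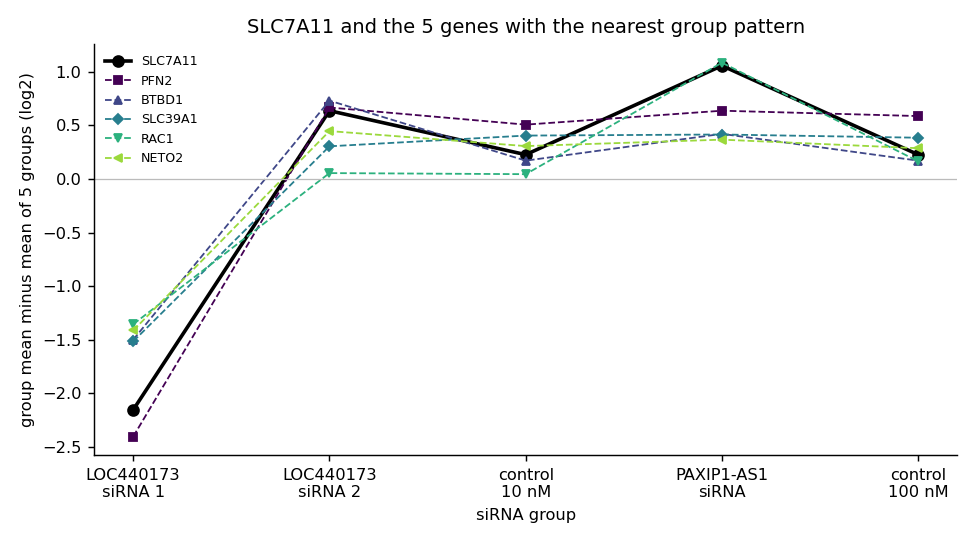
Group means minus each gene's mean over the 5 groups (log2, y axis) for SLC7A11 (black) and the 5 genes nearest to it, by siRNA group (x axis). Lines only join the points of a gene; the siRNA 1 means are the lowest for all 6 genes, and SLC7A11, RAC1 and SLC39A1 (9.50, against 9.49 in the control at 10 nM) are highest with the PAXIP1-AS1 siRNA.

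Genes that share regulators or function with the transporters were counted in the same fit. The shares of all genes beside these lists include dim genes. Larger shares of genes passed with dim genes left out, and shares of the lists in that setting are not given here. Of 30 other amino acid transporter genes, 4 were higher and 11 lower with siRNA 1, 4 higher and 6 lower with siRNA 2, and 3 higher and 0 lower with the PAXIP1-AS1 siRNA. As shares, 13.3% were higher and 36.7% lower with siRNA 1, where all genes had 12.1% and 16.7%, and 13.3% and 20.0% with siRNA 2, near the 12.5% and 17.4% of all genes. With the PAXIP1-AS1 siRNA, 10.0% were higher, beside 2.86% of all genes. Their medians were -0.03, 0.06 and 0.04 (log2). SLC6A6, the taurine transporter, had 8.18 and 8.23 with siRNA 1 and 10.03 and 9.93 with siRNA 2, against 9.13 and 9.12 in the control at 10 nM. As with SLC7A11, its siRNA 1 arrays were below the control and its siRNA 2 arrays above it. The neuronal glutamate transporter SLC1A1 differed by -0.65 with siRNA 1, with 6.32 and 6.61 against 7.07 and 7.17 in the control at 10 nM. With siRNA 2, the cationic amino acid transporter SLC7A3 differed by -1.17, with 6.54 and 6.48 against 7.63 and 7.73 in that control. The glutamine transporter SLC38A3 differed by -0.92, with 7.53 and 7.66 against 8.51 and 8.51. The signal of these 3 genes over background was not analysed. SLC7A2, a further cationic transporter, rose by 0.40 (limma adjusted p = 0.0221) and SLC6A15, a neutral amino acid transporter, by 0.38 (limma adjusted p = 0.00854) with the PAXIP1-AS1 siRNA.

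Of 26 genes of the integrated stress response and ATF4, 4 were higher and 12 lower with siRNA 1, 12 higher and 3 lower with siRNA 2, and 10 higher and 0 lower with the PAXIP1-AS1 siRNA. With siRNA 1, 15.4% were higher and 46.2% lower, beside 12.1% and 16.7% of all genes. With siRNA 2, 46.2% were higher and 11.5% lower, beside 12.5% and 17.4%, and with the PAXIP1-AS1 siRNA 38.5% were higher, beside 2.86%. Their medians were -0.19, 0.14 and 0.23. CTH, which makes cysteine from cystathionine, had 8.07 and 8.08 with siRNA 1 and 9.83 and 9.89 with siRNA 2, against 9.20 and 9.44 in the control at 10 nM. It thus lay below the control with siRNA 1 (-1.25) and above it with siRNA 2, as did the secreted glycoprotein STC2, with 7.70 and 7.68 with siRNA 1 and 9.10 and 9.14 with siRNA 2, against 8.71 and 8.73 in the control at 10 nM. PHGDH, the first enzyme of serine synthesis, differed by 0.83 with siRNA 2. SHMT2, the mitochondrial enzyme that makes glycine from serine, had 11.67 and 11.69 with the PAXIP1-AS1 siRNA, against 10.33 and 10.38 in the control at 100 nM. It rose by 1.32 (SE 0.0488, limma adjusted p = 2.90e-05), and DDIT4, an inhibitor of mTORC1, rose by 0.99 (limma adjusted p = 0.000725). These stress genes were picked for the list with earlier results known, so the counts are a description.

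Of 21 measured NRF2 and glutathione genes, 3 were higher and 6 lower with siRNA 1, 9 higher and 4 lower with siRNA 2, and 3 higher and 0 lower with the PAXIP1-AS1 siRNA. The shares with siRNA 1 were 14.3% and 28.6%, beside 12.1% and 16.7% of all genes, and those with siRNA 2 were 42.9% and 19.0%, beside 12.5% and 17.4%. A share of 14.3% was higher with the PAXIP1-AS1 siRNA, beside 2.86% of all genes. Their medians were -0.11, 0.10 and 0.11. The subunits of glutamate-cysteine ligase, the enzyme downstream of cystine import, moved apart with siRNA 2. The catalytic subunit GCLC had 10.15 and 10.19 with siRNA 2, against 9.58 and 9.65 in the control at 10 nM, a difference of 0.56. The modifier subunit GCLM had 6.46 and 6.63 with siRNA 2, against 7.25 and 7.71 in the control at 10 nM, a difference of -0.94. SRXN1, which repairs oxidised peroxiredoxins, had 8.18 and 8.26 with siRNA 1 and 9.48 and 9.56 with siRNA 2, against 8.98 and 8.96 in the control at 10 nM. The pentose phosphate enzyme TALDO1 differed by -0.53 with siRNA 1. With the PAXIP1-AS1 siRNA, the quinone reductase NQO1 rose by 0.56 (limma adjusted p = 0.0270) and the malic enzyme ME1 by 0.55 (limma adjusted p = 0.00489).

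Of 29 measured genes of amino acid sensing by mTORC1, 8 were higher and 6 lower with siRNA 1, 7 higher and 9 lower with siRNA 2, and 2 higher and 0 lower with the PAXIP1-AS1 siRNA. The higher and lower shares were 27.6% and 20.7% with siRNA 1, beside 12.1% and 16.7% of all genes, and 24.1% and 31.0% with siRNA 2, beside 12.5% and 17.4%. The share higher with the PAXIP1-AS1 siRNA was 6.90%, beside 2.86%. Their medians were 0.08, -0.02 and -0.02. RRAGD, a Rag GTPase, had 9.24 and 9.20 with siRNA 1 and 10.65 and 10.66 with siRNA 2, against 10.18 and 10.31 in the control at 10 nM. SAMTOR, a sensor of S-adenosylmethionine, differed by 0.62 with siRNA 1. SESN3, a sestrin that restrains mTORC1, differed by 0.94 with siRNA 2, and the Ragulator subunit LAMTOR5 by -0.89. With the PAXIP1-AS1 siRNA, SEH1L rose by 0.37 (limma adjusted p = 0.00811) and SESN3 by 0.32 (limma adjusted p = 0.0160). None of these 4 lists had a gene past the limma threshold between the control doses, and 1 transporter, 1 stress gene, 0 NRF2 genes and 1 sensing gene had an unadjusted p under 0.05.

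**Figure D5:**
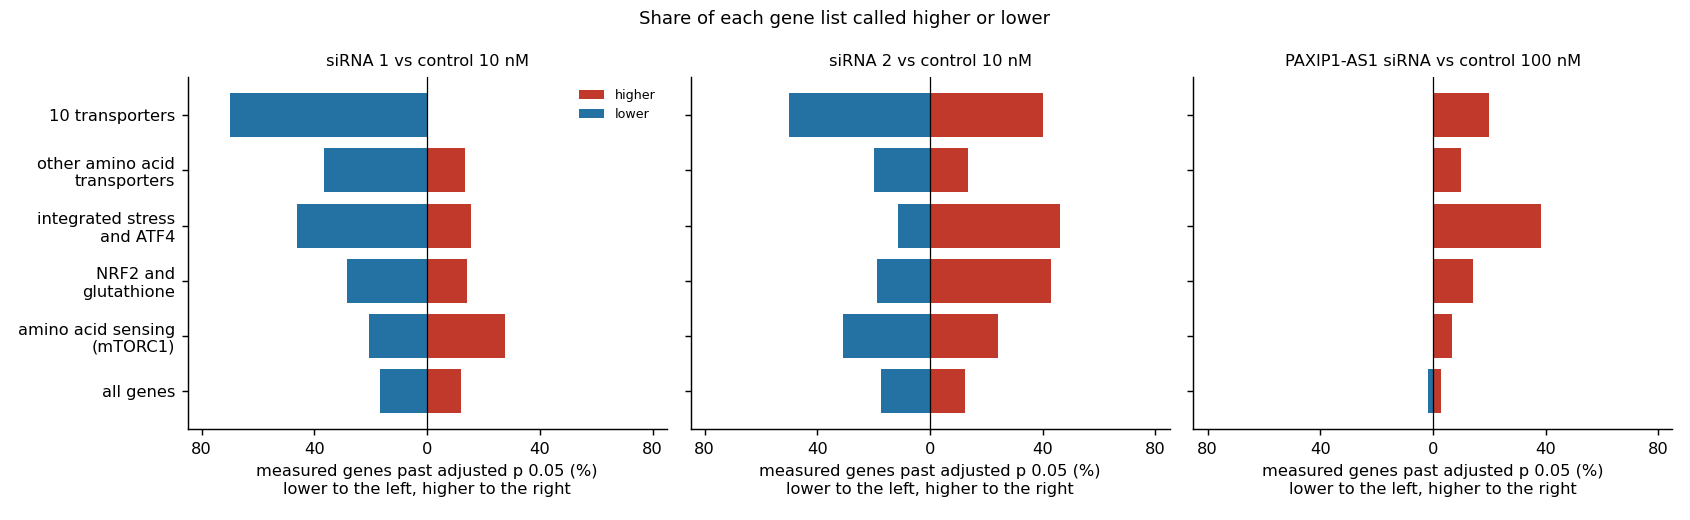
Share of the measured genes of each list past an adjusted p of 0.05 (percent, x axis), lower to the left in blue and higher to the right in red, in 3 comparisons. With the PAXIP1-AS1 siRNA, 38.5% of the integrated stress and ATF4 genes and 20.0% of the 10 transporters were higher, beside 2.86% of all genes, dim genes included. The transporter list was drawn up from the first and second comparisons.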

How the data were processed

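The deposited values were log2 expression values per probe set, which the authors made with RMA (which corrects background, quantile-normalizes and summarises the probes of a set), per the submitters' processing notes, which also name limma. Tool versions and the array definition file were not given in the sources used here. The platform annotation gave 1 symbol for 19158 of 32321 probe sets and several for 1388. It left 11775 unlisted, which are unnamed here, and 0 symbols changed through RefSeq. The brightest probe set stood for each of the 637 genes with several. No further scaling was applied. Groups came from the sample titles.

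All 10 arrays entered 1 limma fit (version 3.58.1, R 4.3.3) with a mean per group and eBayes (5 residual and 2.87 prior degrees of freedom), two-sided, with Benjamini-Hochberg adjustment over 18404 genes and a threshold of 0.05. An exact permutation test of 2 arrays against 2 cannot go below p = 0.333, so calls rest on the pooled spread, and the number of arrays limits the precision. Levels of different genes are not compared, since probe sets differ in response, and marker lists are compared between groups. The members and lists were chosen with earlier results of these data known. Named genes were all members, the target, the 5 genes nearest SLC7A11, and at most the 2 called genes with the largest change per list and comparison. The code was tested on simulated data. Alternatives were dim genes left out, probe sets averaged per gene or tested separately, a repeated quantile normalization, only the compared groups, a trend with a robust prior, the replicate number as a block, and each array left out.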

Additional observations from a re-analysis of the deposited data

Results flagged for a closer look

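With siRNA 2 and siRNA 1, 3 transporters had both arrays of each siRNA on opposite sides of the mean of the control at 10 nM. The siRNA 2 effect minus the siRNA 1 effect was 2.79 (log2) for SLC7A11, 0.83 for SLC1A5 and 0.29 for SLC38A2. These differences were not tested independently of the contrasts from which the list was drawn up, and both effects share the control arrays. For SLC38A2, 1 of the siRNA 1 arrays (11.92) lay within the range of the control arrays (11.90 and 11.99).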

How the results depend on the processing

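Over 50 pairs of transporter and comparison and 17 alternatives, 797 values kept their direction and side of the threshold, 33 lost and 15 gained a call, and 5 changed sign. Part of this count was fixed in advance. Leaving out an array outside a comparison cannot change its fold change, nor can averaging probe sets change that of a gene with 1 probe set. The control doses, where no gene passed in any setting, gave 166 of the 797. With only the groups compared, 4 transporters passed with siRNA 2 (0 higher, 4 lower) in place of 9, from a fit with fewer arrays. With the PAXIP1-AS1 siRNA the count was 1 in place of 2 with only the groups compared, the mean of all probe sets or every probe set separately, and 4 with the trend and robust prior. The cause was not tested. Leaving out each array gave 6 to 7 calls with siRNA 1, 8 to 9 with siRNA 2, 6 to 8 between these siRNAs, 1 to 3 with the PAXIP1-AS1 siRNA and 0 between the control doses. Values near 0 changed sign. With the PAXIP1-AS1 siRNA, SLC7A5 differed by -0.00176 without control 100 nM replicate 2. Between the control doses, SLC7A11 ranged over left-out arrays from -0.09 (without control 10 nM replicate 1, and -0.04 without control 100 nM replicate 2) to 0.10, and SLC38A1 from -0.07 to 0.05 (without control 10 nM replicate 2, and 0.02 without control 100 nM replicate 1). Over all genes, 850 passed with the PAXIP1-AS1 siRNA, against 181 with only the groups compared and 364 with every probe set separately. For the same siRNA, 1784 passed with the trend and robust prior, and 1889 of 9706 genes (19.5%) with dim genes left out. With only the groups compared, 3494 passed in place of 5301 with siRNA 1 and 2788 in place of 5512 with siRNA 2. Leaving out an array took the PAXIP1-AS1 count to 110 or 117 without either array of that siRNA, 135 or 187 without either array of the control at 100 nM, and 477 without either siRNA 1 array, and the siRNA 1 count to 3294 or 3423 without either siRNA 1 array. The replicate block gave 8, 9, 9, 2 and 0 transporters in the order siRNA 1, siRNA 2, siRNA 2 against siRNA 1, PAXIP1-AS1 and control doses, and 6739 genes with siRNA 1 and 1325 with the PAXIP1-AS1 siRNA. The added call was SLC38A1 with siRNA 1 and between siRNA 2 and siRNA 1. The labels give no shared batch for a number. Deviations of same-numbered arrays correlated at 0.0677 to 0.0904 in the 4 group pairs with siRNA 1 and at 0.293 to 0.529 in the other 6, so the numbers were not taken to pair all groups, and shared deviations among the other 4 groups are a hint from the data. Signal over background was not analysed here.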
